A study of Mus musculus with 22 samples.

Results

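The comparison set mouse primordial germ cells (PGCs), the embryonic precursors of eggs and sperm, cultured for 2 days with basic fibroblast growth factor (bFGF) and 4-hydroxytamoxifen (4OHT) against PGCs cultured for 2 days with bFGF alone. Its members were the arrays titled for these conditions, 2 of 22 in the series, and each condition had 1 array. The PGCs came from embryos at E11.5, the medium of both cultures held LIF and serum replacement, and cells positive for SSEA-1, a surface sugar used to sort PGCs, were collected. The labels give 100 nM 4OHT as the way to activate AKT. They name no construct that 4OHT would act on, no genotype for either culture and no vehicle control, and these were not analysed here. A second pair of arrays carried the same addition in another medium: bFGF with 1 µM of the MEK inhibitor PD325901, 3 µM of the GSK inhibitor CHIR99021 (together 2i) and 250 nM of the activin and TGF-beta receptor inhibitor A83-01, with or without 100 nM 4OHT. Day 2 cultures with bFGF and a single inhibitor, 1 array each, stood beside them.

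AKT is a serine/threonine kinase that is recruited to the cell membrane when PI3-kinase makes its lipid signal. Active AKT phosphorylates FOXO transcription factors, which keeps them out of the nucleus, inhibits GSK3 and the TSC complex, and so favours growth through mTOR and survival. In germ cells, activation of AKT is known to favour conversion of PGCs into pluripotent embryonic germ cells, and bFGF and LIF are used for the same conversion. These effects on AKT and FOXO proteins act through phosphorylation, which an RNA array does not measure.

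Levels below are log2 intensities from which the same array's 75th percentile (log2) was subtracted, so 0 is that percentile, and a difference is the level with 4OHT minus the level without it. With 1 array a side, no difference between 2 arrays has a replicate check or a p-value, and genes at least 2-fold apart are counted instead. Of 16792 genes well above background on at least 1 of the 2 arrays, 4412 were at least 2-fold higher with 4OHT (26.3%) and 1907 at least 2-fold lower (11.4%), together 37.6%. Of the 14386 genes measured on both arrays, that is well above background on each, 26.1% were at least 2-fold higher and 11.1% lower, 37.2% in all; gene lists are counted over such members, since a gene seen on 1 array only could pass in 1 direction only. The median of these genes was +0.40, and once that median was set to 0 the split was 2812 higher and 3083 lower. Every count below is to be read against these shares and every median against +0.40.

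Several technical values moved with 4OHT. The 4OHT array had its 75th percentile at an intensity of 252.3 and 53.7% of its probes well above background, against 704.7 and 60.2% on the bFGF array, and the repeat spots of a probe differed by a median SD of 0.074 and 0.060 on the log2 scale. Both 4OHT arrays of the series lay on slide 9, the bFGF array and its partner with 2i and A83-01 on slide 2, so 4OHT and slide cannot be told apart. The median difference changed with level: it was 1.15 in the eighth of genes with the lowest level, 0.09 in the fourth and 0.72 in the highest. It also changed with probe composition, from 0.28 for probes with up to 40% G and C to 1.69 for 154 probes with over 60%. Between the arrays with 2i and A83-01 and with bFGF alone, which shared a slide, 635 of 16420 genes were at least 2-fold apart. The MEK inhibitor, A83-01 and GSK inhibitor arrays, on slide 7, stood 2-fold apart from bFGF in 1681, 2276 and 3115 genes. Only genes with several probes measured on both arrays, 5052 in the 4OHT comparison, allow a check of probe against probe. In 23.0% of these the differences of the probes lay over 1 apart on the log2 scale. The share was 1.7 to 9.0% of such genes in the comparisons of these other additions with bFGF. The part of brightness, probe composition and probe choice in the results below was not tested.

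**Figure D1:**
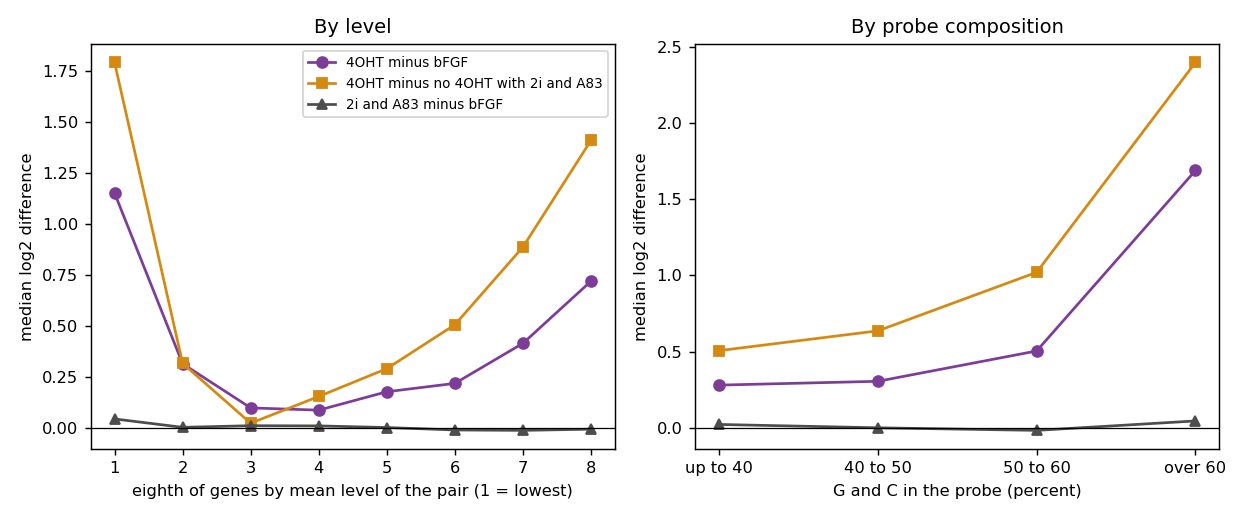
Median log2 difference of genes in eighths by mean level (left) and of probes by their share of G and C (right), for 4OHT minus bFGF, 4OHT minus no 4OHT with 2i and A83-01, and 2i with A83-01 minus bFGF. Both 4OHT curves are high at the lowest and highest levels and for probes with over 60% G and C, and the curve without 4OHT lies within 0.05 of 0.

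The lowest differences were in collagens and other genes of the extracellular matrix, and most epithelial genes were higher with 4OHT. Col3a1, the chain of type III collagen, stood at 5.43 with bFGF and -1.11 with 4OHT and was 92.9-fold lower, the lowest difference of all genes. Dcn, which encodes the matrix proteoglycan decorin, stood at 6.79 and 1.46, 40.3-fold lower. Both type I collagen chains were also lower, Col1a1 at 5.21 and 0.21 and Col1a2 at 6.35 and 1.85. Col6a1, at 3.34 and -2.31, and Col6a2, at 2.58 and -2.68, encode type VI collagen chains. These 6 genes rested on a single probe each that was well above background on both arrays, and the further probes of Col3a1, Dcn, Col1a1 and Col6a2 were above background only with bFGF. The 12 lowest differences further held Lrp1, an endocytic receptor (1.92 and -3.14), Lpl, lipoprotein lipase (2.31 and -2.56), C3, a complement component (3.09 and -1.69), and Xdh, xanthine dehydrogenase (2.20 and -3.17). The adhesion gene Chl1 was not well above background with 4OHT and was at least 32.1-fold lower; here and below the dim side of such a bound is the dimmest level that the scanner still called above background there, or the probe's own level where that is higher.

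Of 9 fibroblast markers measured on both arrays, 6 were at least 2-fold lower with 4OHT and 0 higher, with a median difference of -1.43. Fbn1, which encodes fibrillin, and the platelet-derived growth factor receptors Pdgfrb and Pdgfra were above background only with bFGF; with these 3 at their bounds the median was -2.90. Lum at 0.57, Vim at 0.86 and Thy1 at 0.94 were the 3 members with a difference above 0. That median depended on the processing: it was -1.34 with all probes of a gene averaged and -1.54 with normexp background correction. The summed linear level of the list, in multiples of the 75th percentile, was 342 with bFGF, 127 with 4OHT, 355 with 2i and A83-01, 42.3 with 2i, A83-01 and 4OHT, and 139 to 204 with a single inhibitor. It was 11.8 on the array of uncultured PGCs. The summed level of fibroblast markers was thus higher on every day 2 array than in PGCs from the embryo, but not every member followed the sum. In uncultured PGCs Col1a1, Col1a2, Col3a1 and Dcn stood at -2.50, 2.23, -1.25 and 0.06. With 2i, A83-01 and 4OHT, Col1a2, Col3a1 and Dcn stood at 0.87, -2.14 and 0.19, and Col1a1 was not well above background. With bFGF and 4OHT, Col1a2, at 1.85, was also below its level in uncultured PGCs. In a bulk sample fewer cells of a type and less RNA per cell cannot be told apart. The part of fibroblast RNA in the other differences was not tested.

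Of 14 epithelial genes, 12 were at least 2-fold higher and 0 lower, with a median of 2.37. The keratin genes Krt8 and Krt18, whose proteins pair in simple epithelia, stood at 3.88 and 5.27 with bFGF and at 6.56 and 7.86 with 4OHT, 6.38-fold and 6.00-fold higher. Spint2, a membrane inhibitor of serine proteases, went from -0.66 to 2.18. The claudins, which form tight junctions, were all higher: Cldn7 went from 2.62 to 5.18, Cldn4 from -0.44 to 2.09, Cldn6 from -0.70 to 1.70 and Cldn3 from -0.69 to 0.87. Cdh1, which encodes E-cadherin, stood at 0.23 and 0.39 and Epcam at -0.04 and 0.75, the 2 members short of 2-fold. Cdh2, the N-cadherin gene, stood at -0.30 and -2.68 by its brightest probe, the only 1 of its 3 probes well above background on both arrays. The mean of all 3, which takes in dim probes, gave a difference of 0.62. The GSK inhibitor array also had high levels of Krt8 (5.89) and Krt18 (7.02) and lower levels of Col3a1 (1.43) and Dcn (4.04) than the bFGF array, with which both comparisons are made.

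**Figure D2:**
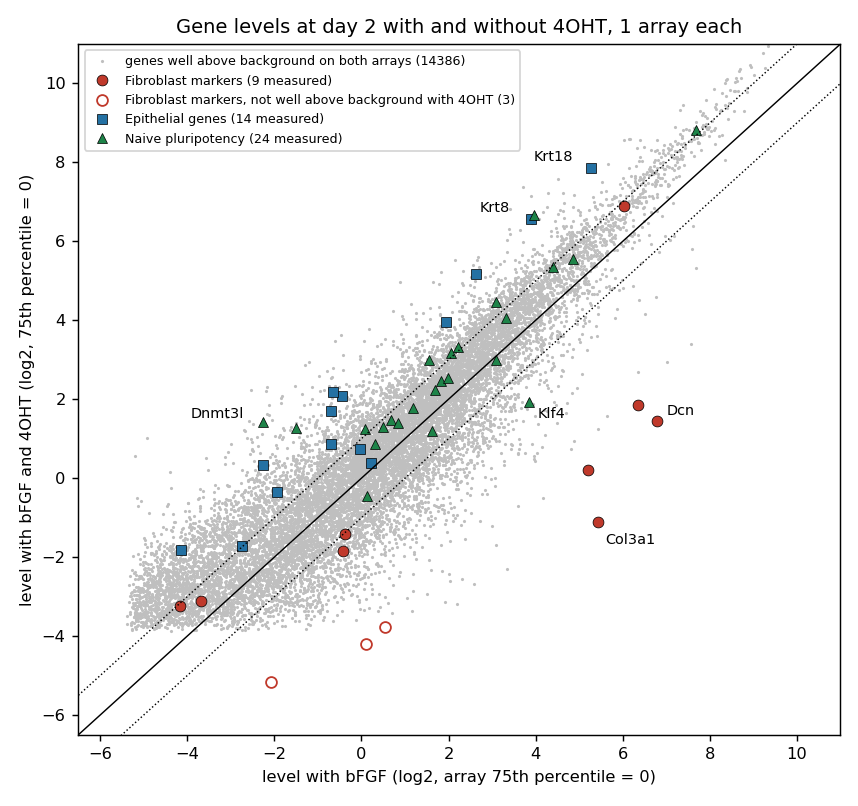
Level of each gene with bFGF (horizontal) against bFGF and 4OHT (vertical), both log2 with the array's 75th percentile at 0; the solid line marks equal levels and the dotted lines 2-fold. Collagens and Dcn lie far below the line (Col3a1 at 5.43 and -1.11), Krt8 and Krt18 above it, and most naive pluripotency genes near the upper dotted line or between the lines.

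Genes of the AKT pathway itself had a median below 0, where the median of all genes was +0.40. Of 30 pathway components measured on both arrays, 9 were at least 2-fold lower and 4 higher, with a median of -0.40. Akt1 was close on both arrays, at 4.58 with bFGF and 4.71 with 4OHT. Akt2 was also within 2-fold, at 1.34 and 0.93. Those lower by 2-fold or more lay on both sides of the kinase. They held the PI3-kinase subunits Pik3ca (-0.05 and -1.43), Pik3r1 (-1.06 and -2.49), Pik3r2 (3.07 and 1.54) and Pik3r3 (1.27 and 0.12), and the receptors Igf1r (-0.12 and -1.40) and Insr (-2.49 and -3.67). They also held antagonists of the pathway, among them Tsc1 at -0.79 and -1.92 and Tsc2 at 4.11 and 2.64; the AKT phosphatase gene Phlpp1 was above background only with bFGF. The 4 higher members were Eras, which encodes a constitutively active Ras of embryonic stem cells that binds PI3-kinase (-4.79 and -1.38), Mtor (0.14 and 1.32), its activator Rheb (4.62 and 5.63) and the lipid phosphatase gene Inpp4b (-4.61 and -3.48). Eras and Inpp4b lie in the eighth of genes with the lowest level, where the median difference was 1.15, and Inpp4b, at 1.12, did not exceed it. The list median was below 0 under every setting tried, from -0.80 with the all-gene median at 0 to -0.12 with normexp.

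FOXO factors and their targets did not move one way. Foxo6 was the lowest of them, at 3.60 with bFGF and 0.64 with 4OHT. Foxo1 stood at 1.36 and 1.94, Foxo3 was well above background only with bFGF, at -4.62, and has no fold, and Foxo4 was not well above background on either array. Of 23 members measured on both arrays, 5 were at least 2-fold higher and 4 lower, with a median of 0.46. With bounds included the median was 0.36, and -0.04 with the all-gene median at 0. The FOXO targets lower with 4OHT were Bcl6, a transcriptional repressor (1.04 and -1.03), Pdk4, a kinase that shuts pyruvate dehydrogenase (1.85 and 0.76), and Insr. Those higher were Igfbp1 (-4.93 and -2.93), Sesn3 (0.11 and 1.37), Ccng2 (-0.59 and 0.63), Cited2 (2.09 and 3.14) and Bbc3 (1.52 and 2.65), the gene of the cell death activator PUMA. Bcl2l11, which encodes the death activator BIM, stood at 0.72 and 1.63 and Txnip at 2.26 and 2.72.

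The motif GTAAACA, bound by FOXO and other forkhead proteins, was searched on both strands in RefSeq promoter windows (GRCm38.p6, from 250 bases before to 50 after a gene's start, 300 bases). It stood in the windows of 5 of 23 list genes with a window (21.7%), against 1095 of 27025 genes (4.05%), and in 354 of 11162 genes tested in the 4OHT comparison (3.17%), 101 of 2791 at least 2-fold higher (3.62%) and 38 of 1366 at least 2-fold lower (2.78%). The list is made of known FOXO targets, so its share describes the list and not 4OHT. Stretches are shown for the 4 members with the motif before the start, chosen by its position only. Their differences were 1.13 for Bbc3, 0.91 for Bcl2l11, 0.81 for Trim63 and 0.46 for Txnip. Each stretch is written 5′ to 3′ on the gene's strand, with the motif, or its reverse complement in Bbc3 and Trim63, in capitals:
Bbc3, chr7:16310069-16310125, plus strand: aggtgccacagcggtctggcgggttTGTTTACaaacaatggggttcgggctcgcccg
Bcl2l11, chr2:128125788-128125842, plus strand: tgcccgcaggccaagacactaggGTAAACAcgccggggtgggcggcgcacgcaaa
Trim63, chr4:134314901-134314957, plus strand: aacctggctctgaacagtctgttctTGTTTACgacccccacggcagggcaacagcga
Txnip, chr3:96557811-96557867, plus strand: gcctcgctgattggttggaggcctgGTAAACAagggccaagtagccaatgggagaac

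A full palindromic estrogen response element, searched on both strands, was in 0 of the 13 windows of estrogen-responsive genes and in 20 of 27025 genes (0.0740%). With an element this rare, 13 windows would nearly always give 0, so the count says nothing about 4OHT. 4OHT is an estrogen receptor ligand. Of 7 estrogen-responsive genes measured on both arrays, 1 was at least 2-fold higher and 1 lower. Cxcl12 stood at 2.06 with bFGF and 0.54 with 4OHT, Xbp1 at -0.13 and 1.21, and Esr1, which encodes estrogen receptor alpha, was well above background only with bFGF, at -4.80. Greb1 and Pgr, classic targets of the receptor, were not well above background on either array.

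Among genes induced by growth factor signals, several immediate early genes were lower with 4OHT and several slower feedback genes higher. Of 11 immediate early genes measured on both arrays, 5 were at least 2-fold lower and 0 higher, with a median of -0.86. Egr1, a zinc finger factor induced by ERK, stood at 4.96 with bFGF and 2.29 with 4OHT, Egr2 at -0.56 and -3.13, Fos at 2.67 and 0.78, Fosb at -1.49 and -3.18 and Jun at 0.83 and -0.40. Junb was nearly equal at 6.12 and 6.01. The ERK-responsive list holds slower targets as well, and 6 of its 14 members were at least 2-fold higher and 2 lower. Feedback inhibitors of the FGF and ERK pathway were among the higher ones: Dusp6 at 3.68 and 5.66, Spry4 at -2.11 and 0.53, Spry1 at 1.85 and 3.78 and Dusp4 at 1.12 and 2.29. The ETS factors Etv4 (0.21 and 1.94) and Etv1 (-1.39 and 0.07) were higher too. The 2 lower members were Egr1 and Fosl1. Dusp6 was also above bFGF on the arrays with A83-01 (5.10), the GSK inhibitor (4.91) and the MEK inhibitor (4.19). It was lowest of the 7 day 2 arrays with 2i and A83-01 (2.61). On the MEK inhibitor array Egr1 stood at 4.59, Spry4 at -1.54 and Spry1 at 0.89, so these genes did not all fall where MEK alone was inhibited. The GSK inhibitor array had Egr1 at 2.85, Egr2 at -2.48, Fos at 1.78 and Fosb at -2.71, each below bFGF. Spry1, at 3.26, and Spry4, at -0.43, were above bFGF there, so these differences were not particular to 4OHT. On the A83-01 array the same 4 early genes were above bFGF, with Egr1 at 5.06.

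Among targets of other pathways, BMP targets were above 0 in all 11 members measured on both arrays, 5 of them at least 2-fold higher and 0 lower, though Id1, at 0.22, lay below the all-gene median. Id2, a dominant-negative helix-loop-helix factor, went from 0.96 to 3.54, the BMP antagonist Nog from -0.54 to 1.99 and Msx1 from -4.18 to -1.73. With the GSK inhibitor Id2, Nog and Msx1 stood at 3.00, 1.17 and -2.81. Id1 and Id3, the other direct targets, stood at 2.11 and 2.33 and at 2.15 and 2.77. Of 10 Wnt targets measured on both arrays, 4 were at least 2-fold higher and 1 lower, with a median of 0.73. Sp5 went from -4.36 to -1.73 and Ccnd1 from 2.12 to 3.31, while Axin2 stood at -3.57 and -3.21 and Cdx2, Sp8 and Dkk1 were above background only with 4OHT. Ccnd1 was also above bFGF on the MEK inhibitor, GSK inhibitor and A83-01 arrays, at 3.06, 3.12 and 4.05. In the pair with 2i and A83-01, Ccnd1 differed by -0.27 with 4OHT. TGF-beta and activin targets went both ways, 5 of 13 higher and 3 lower: Ccn2 was at 2.98 and 5.45, Lefty2 at -4.64 and -1.79 and Lefty1 at -1.69 and -3.37. With the GSK inhibitor Ccn2 was at 4.66 and Lefty1 at -2.88, and Lefty2 was not well above background.

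Most PGC markers were near or above their level with bFGF. They were well above background on both arrays in all 11 members measured, 4 of them at least 2-fold higher and 1 lower, with a median of 0.83. Prdm1, which encodes BLIMP1, the factor that specifies PGCs and represses their somatic genes, was the lower one, at -1.14 with bFGF and -2.67 with 4OHT. Fut4, a fucosyltransferase gene, stood at -3.95 and -1.15. The RNA-binding factor gene Nanos3 was at -1.38 and 0.76 and the PGC factor gene Tfap2c at 2.23 and 3.51. Dppa3 was nearly equal, at 4.33 and 4.48, the receptor gene Kit stood at 1.05 and 0.49, and Alpl, the alkaline phosphatase used to stain PGCs, at 2.18 and 1.81. Prdm14 was not analysed here. Prdm1 was lower still on the A83-01 array, at -3.88.

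Of 23 later germline genes measured on both arrays, 6 were at least 2-fold higher and 2 lower, with a median of 0.46; with bounds included it was 0.38, and -0.02 with the all-gene median at 0. Asz1, a piRNA pathway gene, stood at -1.80 and 0.15, Mael at 1.26 and 2.53 and Piwil4 at -3.35 and -1.31. Tex14 (-1.34 and -2.92) and the meiotic cohesin gene Smc1b (-0.18 and -1.59) were lower. Ddx4 at 1.08 and 1.46 and Dazl at 2.71 and 2.95 differed by less than the all-gene median.

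Naive pluripotency genes were shifted up in part. Of 24, 9 were at least 2-fold higher and 1 lower, with a median of 0.77, and 0.37 with the all-gene median at 0. The core factors were within 2-fold: Pou5f1 stood at 3.31 and 4.05, Nanog at 1.82 and 2.47 and Sox2 at 0.68 and 1.48. The largest differences were in Dnmt3l, the cofactor of de novo DNA methylation (-2.25 and 1.43, 12.8-fold), the nuclear receptor gene Nr0b1 (-1.50 and 1.27) and Klf2 (3.97 and 6.66). The probe that stood for Klf2 has 78.3% G and C, and the gene's probes gave differences of 1.03 to 2.69. Zfp42 (3.09 and 4.46), Gdf3 (1.56 and 3.00) and Tdgf1 (0.09 and 1.25) were also higher. Klf4, a reprogramming factor, was the lower one, at 3.84 and 1.93. Its level on the GSK inhibitor array was 2.60 and on the other 2 single-inhibitor arrays 3.62 and 3.70. Of 6 primed epiblast genes tested, 4 were at least 2-fold higher, among them Pou3f1 (-0.51 and 2.31) and Otx2 (-3.70 and -1.38), and Cdh2 was lower by its brightest probe.

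Among survival genes, of 14 BCL2 family genes, 5 were at least 2-fold higher and 0 lower, and they held both protectors and activators of cell death. The protectors Bcl2 and Bcl2l1 stood at -1.52 and 0.44 and at 1.15 and 2.86, though 1 probe of Bcl2 gave -1.07. The activators Bik, Bok and Bbc3 stood at -2.48 and -0.62, 3.67 and 5.32, and 1.52 and 2.65. All 18 respiratory chain genes were above 0 in the main scaling, 6 of them at least 2-fold higher, though Ndufs1 and Sdha, at 0.19 and 0.28, lay below the all-gene median, and the list median of 0.87 was 0.13 after quantile normalization; the highest was Cox7c, at 4.83 and 6.24. Of 19 glycolysis genes, 3 were higher and 3 lower. The glucose transporter gene Slc2a1 stood at 2.44 and 4.70 and the kinase genes Pdk1 and Pfkp at -0.19 and 1.63 and at -1.45 and 0.22, with probes of Pdk1 from -0.18 to 1.81 and of Pfkp from 0.16 to 1.68, while Hk1 was at 2.83 and 1.52 with probes from -2.55 to 1.51. With the GSK inhibitor Slc2a1 stood at 4.02, Pdk1 at 1.16, Pfkp at -0.43 and Hk1 at 2.26. The glycolysis median, 0.30, was -0.43 after quantile normalization and -0.10 with the all-gene median at 0.

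Sterol and fatty acid synthesis is a target of AKT through the SREBP factors. Of 24 genes, 7 were at least 2-fold higher and 2 lower, shares near those of all genes. Among the higher ones were genes of cholesterol synthesis: Idi1 (1.80 and 3.86), Fdps (2.60 and 4.10), Hmgcs1 (3.01 and 4.37), Sqle (2.32 and 3.47) and Dhcr7 (2.73 and 3.85). Others of the same branch were within 2-fold, with differences of 0.39 for Mvd and 0.10 for Cyp51. The 2 lower ones, Scd1 (1.43 and -1.20) and Acaca (-0.25 and -2.49), act on fatty acids, and Fasn stood at 5.77 and 4.82. For Acaca the gene's probes ran from -2.23 to 1.34. The SREBP genes were within 2-fold, Srebf1 at 3.28 and 2.93 and Srebf2 at 4.42 and 4.08. A sterol element (TCACCCCAC, both strands) was in the promoter window of 1 of 14 list genes with a window, and in 166 of 27025 genes (0.614%). That gene was Hmgcs1, whose stretch is shown with the element in capitals:
Hmgcs1, chr13:119690189-119690247, plus strand: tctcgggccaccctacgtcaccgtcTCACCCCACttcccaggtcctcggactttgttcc

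Proliferation genes were mostly close. Of 21 cell cycle genes, 1 was at least 2-fold higher and 3 lower, with a median of 0.21 that was -0.19 with the all-gene median at 0. Ccne1, cyclin E, stood at 4.07 and 5.47. Top2a stood at 3.43 and 0.85, Mki67, the Ki-67 gene, at 2.58 and 0.25 and Foxm1 at 1.86 and 0.44. On the MEK inhibitor, GSK inhibitor and A83-01 arrays Mki67 was also low, at 0.57, -0.41 and 0.38, and Top2a stood at 3.06, 2.26 and 2.90. Foxm1 had 1 of its 2 probes well above background on both arrays, and the mean of both, which takes in the dim probe, gave 0.05. The replication genes Mcm2 to Mcm7 were within 0.47 of equal. Of the Myc list, Myc stood at 2.31 and 1.47 and Mycn at 1.69 and 2.81.

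**Figure D3:**
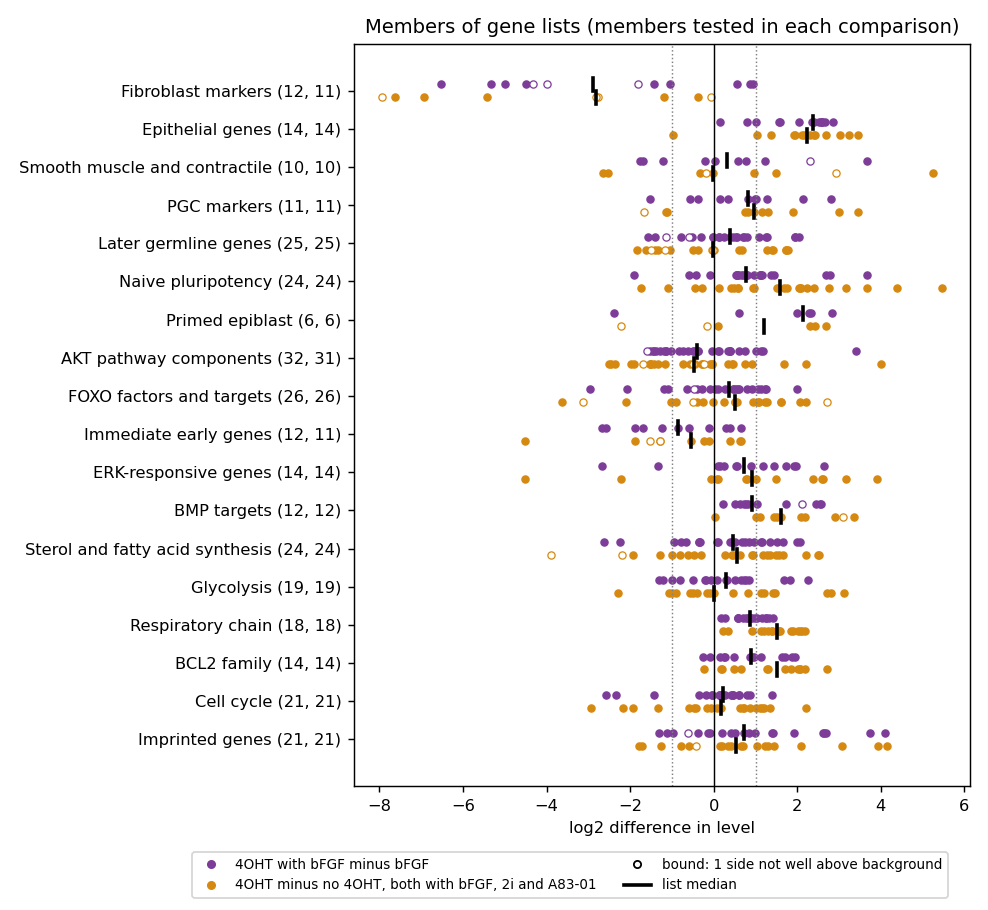
Log2 difference of each tested member of 18 gene lists, for 4OHT minus bFGF (upper row of a pair) and for 4OHT minus no 4OHT with 2i and A83-01 (lower row); open points are bounds, black bars list medians, dotted lines 2-fold. Fibroblast markers reach -6.54 and -7.94, and epithelial genes lie mostly above 1 in both.

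The highest differences of all were in genes that were low or not well above background with bFGF. Npy, neuropeptide Y, stood at -4.93 with bFGF and 1.02 with 4OHT, 61.9-fold higher, and Pnoc, which encodes the nociceptin precursor, at -5.19 and 0.55. Mchr1, a receptor for melanin-concentrating hormone, stood at -2.53 and 2.23 and the cytokine gene Il24 at -2.16 and 2.31. Cyp24a1, the vitamin D hydroxylase gene, was at least 33.1-fold higher, and it stood at -0.86 and 0.00 on the GSK inhibitor and A83-01 arrays. Tnnt2, cardiac troponin T, and Krt84 were at least 21.5-fold and 22.3-fold higher. For Ccbe1, also among the 12 highest, the gene's probes gave 0.95 and 4.54. Npy, Cyp24a1, Tnnt2 and Krt84 were not well above background where 2i and A83-01 were added to 4OHT. That array was the dimmest of the series, with a 75th percentile of 123.9. The dimmest level called above background was -2.63 there and -5.44 on the bFGF array, so the missing calls cannot show that these genes were not raised.

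**Figure D4:**
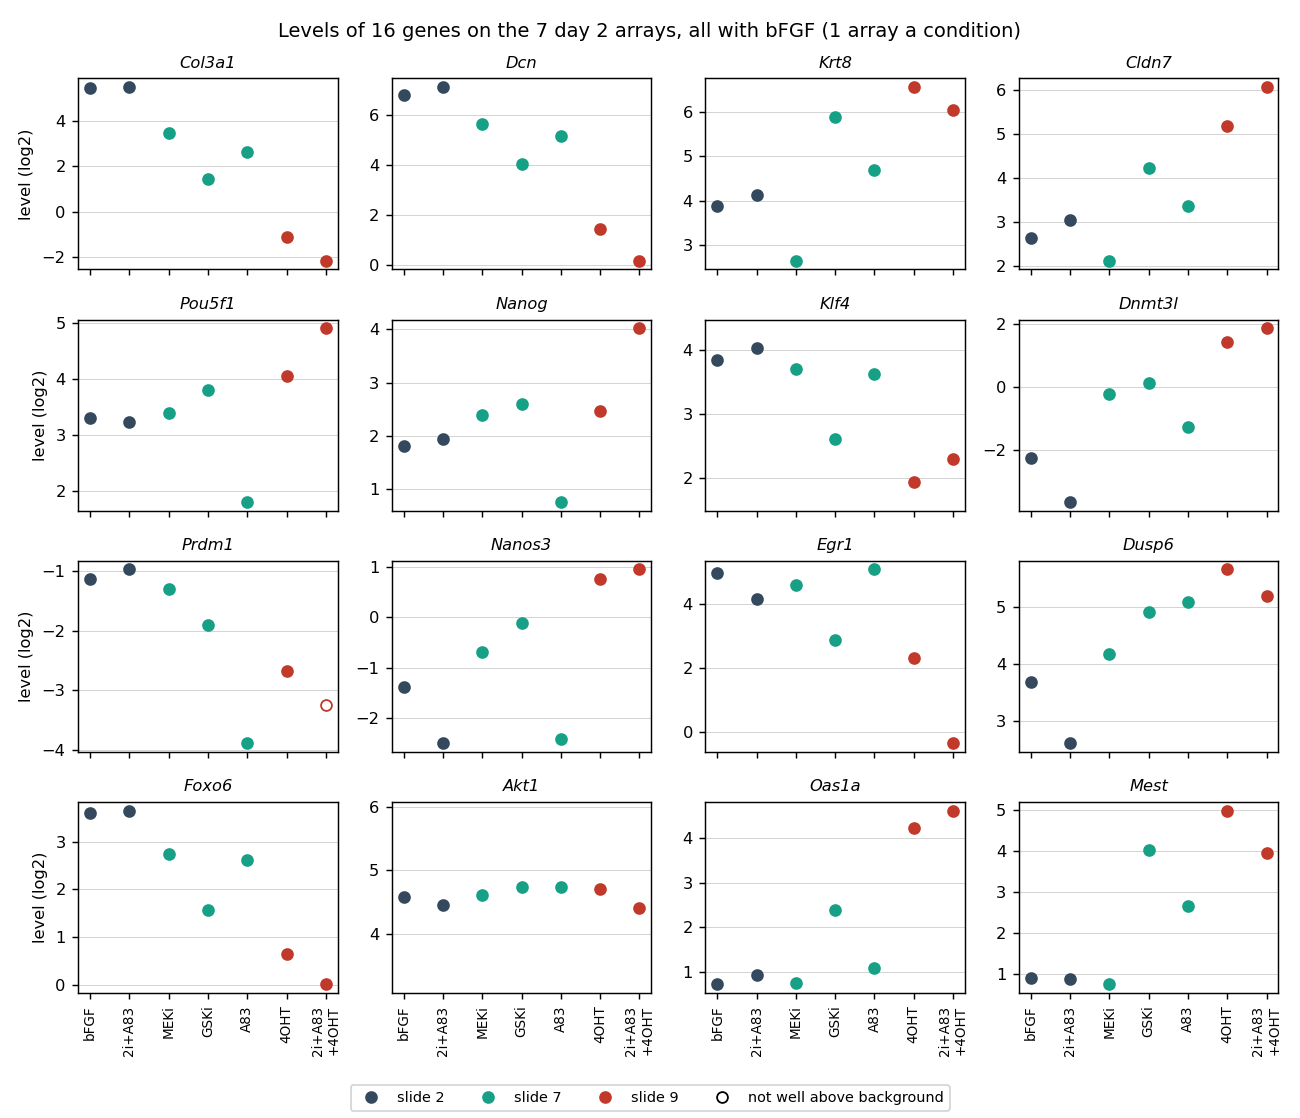
Levels (log2, 75th percentile at 0) of 16 genes on the 7 day 2 arrays, coloured by slide, with 1 array a condition; open points were not well above background. Col3a1, Dcn, Foxo6 and Klf4 are lowest and Dnmt3l, Nanos3 and Oas1a highest on the 2 arrays with 4OHT, and the single-inhibitor arrays, above all the GSK inhibitor, lie between for many of them.

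The second pair tested the same addition where MEK, GSK and activin receptors were inhibited. It shares no array with the first pair but lies on the same pair of slides, and its 4OHT array was dimmer, with a 75th percentile of 123.9 and 44.3% of probes well above background. Of 15978 genes, 5740 were at least 2-fold higher (35.9%) and 2458 lower (15.4%), 51.3% in all, around a median of +0.73. Of the 12436 genes measured on both arrays, 42.1% were higher and 15.1% lower, 57.2% in all. With the all-gene median at 0 the split was 3261 higher and 4266 lower. Of the genes at least 2-fold higher with bFGF alone, 78.7% were so here, and of those higher here 60.5% were higher with bFGF alone; 3472 genes were in both. For the lower genes the shares were 75.7% and 58.7%, with 1443 in both. Opposite directions were seen in 9 genes. Across 12361 genes measured on all 4 arrays, which share slides and dimness of the 4OHT arrays, the differences had a Pearson r of 0.934 and a Spearman rho of 0.938; genes are not independent replicates.

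Fibroblast markers were again mostly lower with 4OHT, and epithelial genes mostly higher, where 2i and A83-01 were present. Col3a1 stood at 5.49 without and -2.14 with 4OHT, and Dcn at 7.12 and 0.19. Of 5 fibroblast markers measured on both arrays, 4 were at least 2-fold lower and 0 higher, and the epithelial list had 13 of 14 higher and 0 lower, though Cdh1 was at -0.98. Foxo6 (3.65 and 0.01) and Egr1 (4.15 and -0.36) were lower. Naive genes had 13 of 24 higher and 2 lower around a median of 1.60. Nanog stood at 1.95 and 4.02, Pou5f1 at 3.24 and 4.91, Dnmt3l at -3.62 and 1.85 and Klf4 at 4.03 and 2.30. Prdm1 was at -0.98 without and not well above background with 4OHT, at least 3.16-fold lower. Of 27 AKT pathway components measured on both arrays, 11 were lower and 3 higher. Igf2 and H19, neighbouring imprinted genes, differed by 2.62 and 2.64 with bFGF alone and by 0.35 and 0.42 here; they were picked after their values were seen, and the difference between the pairs was not tested.

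The 7 day 2 arrays were also fitted together with limma, with additive terms for the MEK inhibitor, the GSK inhibitor, A83-01 and 4OHT and 2 residual degrees of freedom. The p-value of the 4OHT term then rests on how these 7 arrays scatter, with no repeated culture behind it, and it cannot part 4OHT from slide. At a Benjamini-Hochberg adjusted p under 0.05, 0 of 18596 genes passed (0%), while 8708 lay under 0.05 before adjustment. The lowest limma adjusted value, 0.0523, was a tie, since the adjustment can give neighbouring ranks the same value. It does not single out the genes that hold it, and their number is not given here. Among them were Dcn, with a term of -4.93 ± 0.98 (SE), Krt8, at 2.08 ± 0.33, and Egr1, at -3.20 ± 0.53. The term was -5.32 ± 1.34 for Col3a1 (limma adjusted p = 0.0586), -1.48 ± 0.35 for Klf4 (adjusted p = 0.0559), 2.34 ± 0.49 for Nanos3 (adjusted p = 0.0532) and -1.12 ± 0.64 for Prdm1 (adjusted p = 0.223). The number passing ran from 0 to 15253 with the processing, so no gene is called from this fit.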

How the data were processed

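The authors hybridised Cy3-labelled total RNA to 1-colour Agilent mouse arrays and processed the scans with Agilent Feature Extraction 10.7.3.1, per the submitters' processing notes. Per the file headers, the authors subtracted background from each deposited intensity and detrended it across its own array; arrays were not scaled to each other. The design is annotated on mm9, per the file headers.

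Control and outlier spots were left out, repeat spots averaged, and each array's log2 75th percentile subtracted from its log2 values to give the level. The 41174 probes were named through RefSeq by accession (27691), symbol (5726) or synonym (676), and 7081 kept the file's name; 27225 genes resulted, each represented by its brightest probe on average over 22 arrays. A probe was well above background where the scanner said so for at least 50% of its spots. Precision is limited by signal over background and by the number of arrays. The fit used limma 3.58.1 under R 4.3.3 (two-sided moderated tests by lmFit and eBayes). It was tested on simulated data with 200 of 18596 genes changed. Of log2 changes of 1, 2 and 4 it recovered 0, 0 and 28.8 percent, with 0 false calls among the unchanged genes. In the data 8708 genes had an unadjusted limma p under 0.05, and recovery after adjustment depends on the share of genes that differ. The simulation also held no shift by slide or brightness. These figures therefore describe the simulated setting and not the fit to the data.

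Named genes were the 12 highest and 12 lowest differences, the 12 in each direction at least 2-fold in both comparisons, up to 4 members of each list with the largest difference, and 26 fixed genes; other list members are given as examples of their list. Probes named only by an accession were passed over. Some genes that this rule names are not reported here. The members and lists were chosen with earlier results of these data known. Alternatives were normexp (offset 50), quantile normalization, the median difference set to 0, other filters on dim probes, the mean of a gene's probes, the deposited value table (also intensities), a 4-fold threshold, and each array left out of the fit.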

Additional observations from a re-analysis of the deposited data

How the results depend on the processing

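No paired analysis was possible by replicate number because each group has 1 array; the 4 arrays of both pairs were fitted with medium as a term (1 residual degree of freedom, below). For 4OHT minus bFGF, main counts of 4412 higher and 1907 lower, the lower count was 1177 with normexp; the split was 2812 and 3083 with the median set to 0; without the filter on dim probes 13602 were higher and 15987 apart in all; at 4-fold 1291 were higher and 480 lower, 1771 in all. With 2i and A83-01 (5740 and 2458) the higher count was 3484 with normexp, the split 3261 and 4266 with the median set to 0, 16741 were higher and 19917 apart without the filter, and 2544 and 840, 3384 in all, were apart 4-fold. All other settings stayed within 1.5 times these counts, the quantile split being 3301 and 2389. The limma count, 0, was also 0 with quantile normalization and the deposited table. It was 8435 with normexp, 4303 with the mean of probes, 15253 without the filter and 5997 with genes well above background on all 7 arrays. The 4 arrays of both pairs gave 9748. Leaving out 1 array gave 0 to 9748 with 1 residual degree of freedom, and 4261 without the bFGF array. Without the MEK inhibitor, GSK inhibitor or A83-01 array the test of 4OHT was the same as with the 4 arrays. The single-inhibitor arrays that remain are then fitted exactly by their own terms, so 9748 is a single result. The smallest adjusted p over these fits ran from 2.36e-22 to 0.503; the cause was not tested. Averaging a gene's probes turned 4 named genes: Aars to 0.075, Cdh2 to 0.62, Foxm1 to 0.047 and Gatad2b to 0.045. That mean takes in probes not well above background. Only 3 of 5 Aars, 1 of 3 Cdh2, 1 of 2 Foxm1 and 2 of 3 Gatad2b probes were well above background on both arrays. No other setting turned a named gene or a list median that was at least 2-fold. Requiring every measured probe of a gene to be 2-fold apart the same way, an alternative chosen after seeing the data, left 3992 higher and 1554 lower. Of genes with several measured probes, all probes were 2-fold the same way for 422 of 842 higher and 311 of 664 lower. Brightness limits low genes: 1002 genes had no fold and 1404 only a bound.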

Other observations

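Imprinted genes, expressed from 1 parental copy and reset in PGCs, were at least 2-fold higher with 4OHT in 8 of 20 members measured on both arrays and lower in 2. Mest stood at 0.89 with bFGF and 4.98 with 4OHT, Nnat at -2.13 and 1.60, H19 at 0.11 and 2.75 and Igf2 at -0.29 and 2.33, while Igf2r, the receptor that clears IGF2, was at 2.31 and 1.01 and Peg3 at -0.06 and -1.18. On the GSK inhibitor array Mest stood at 4.02 and Nnat at 1.01. Among interferon-stimulated genes, 7 of 19 were higher and 3 lower. Oas1a stood at 0.73 and 4.23, Usp18 at 1.79 and 4.33 and Isg15 at 3.03 and 5.19, whereas Ifit2 (-0.60 and -2.30), Ddx58 (2.48 and 1.25) and Gbp2 (0.53 and -0.66) were lower; the list median, 0.16, was -0.24 with the all-gene median at 0.

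The maintenance DNA methyltransferase gene Dnmt1 stood at 0.93 and -0.59. Of 21 Hox genes measured on both arrays, 6 were at least 2-fold higher and 5 lower. Hoxc9 stood at 0.97 and -1.16, Hoxa7 at 2.54 and 0.81 and Hoxb7 at 2.24 and 3.47. The contractile gene Tagln stood at 3.71 and 7.39, while Myl9 of the same list was at 4.20 and 2.44. On the GSK inhibitor array Tagln was at 6.75 and Myl9 at 3.01. Of 17 p53 targets, 4 were higher and 1 lower, with Perp at 1.25 and 4.04 and Fas at 0.74 and -1.06. With the GSK inhibitor Perp stood at 3.56 and Fas at -0.19.

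Of markers of other cell types, 4 of 13 blood genes were measured on both arrays (2 of them at least 2-fold higher, 0 lower), 4 of 10 endothelial genes (1 and 1), 9 of 14 gonadal somatic genes (4 and 1), 6 of 12 mesonephric and kidney tubule genes (4 and 0) and 4 of 10 trophectoderm genes (3 and 1). Ptprc, Cdh5 and Umod were not well above background on either array. Krt7, shared by trophectoderm and other simple epithelia, stood at 2.58 and 4.85, and Hand1 and Cdx2 were above background only with 4OHT, at least 10.9-fold and 9.35-fold higher.

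The 9 genes at least 2-fold apart in opposite directions in the 2 pairs were picked after their values were seen. Among them, Itgam, Mmp13, Pglyrp1 and Arhgap28 differed by -1.84, -1.54, -1.83 and -1.18 with bFGF alone and by 2.98, 1.75, 1.76 and 3.37 with 2i and A83-01; Asphd1, Cyp2c66 and Daw1 differed by 2.42, 2.47 and 2.76 and by -1.11, -1.03 and -1.17. The difference between the pairs was not tested.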
